A study of Mus musculus with 28 samples.

Results

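The Hedgehog pathway was followed from ligand to transcription factor in single mouse first molars by RNAseq, through 9 genes picked by symbol from the table of read counts per gene. These were Shh, Smo, Ptch1, Hhip, Gli1, Gli2, Gli3, Gas1 and Boc, that is 9 of the 52636 genes listed, and all 9 passed the filter on low counts. The study asked how genes known to be required for tooth development are expressed while the tooth crown is patterned. Teeth came from C57BL/6JOlaHsd embryos at E13 (bud stage, labelled E13.5), E14 (cap stage, labelled E14.5) and E16 (bell stage, labelled E16.5), with 7 teeth from 7, 6 and 5 embryos, respectively. The labels name no engineered allele and no treatment in any group, and the groups differ in them by age. A second table added 6 teeth labelled E15.

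Hedgehog ligands are secreted proteins that bind the receptor Patched, and binding releases Smoothened, which acts through the primary cilium on the Gli transcription factors. Ptch1, Hhip and Gli1 are classical transcriptional targets of the pathway, and the first 2 encode proteins that bind and restrain the ligand. In the tooth Shh is known as a signal of the dental epithelium and of its enamel knots, to which epithelium and mesenchyme both respond.

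Shh was scarce at E13 and rose at each later stage, and Ptch1 and Hhip rose with it at both steps. Gli1 rose between E13 and E14 but did not pass the test between E14 and E16. Gas1 fell at both steps, and Boc fell from E14 to E16. Gli2 and Gli3 passed the test in none of the 3 comparisons.

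Levels are given in CPM, each count being set against the scaled total of its library so that teeth of unequal depth can be compared, and changes as log2 fold changes with their standard errors from edgeR (quasi-likelihood F test, p adjusted by Benjamini-Hochberg over the 19101 genes tested, threshold 0.05). Total counts ranged from 17814073 to 27115729 per tooth. The labels name a whole molar tooth germ, and both of its tissues were present, since the summed level of 9 epithelium markers was between 825 and 4006 CPM and that of 8 mesenchyme markers between 2718 and 7873 CPM. One tooth stood apart, the E16 left molar of embryo 3 (E16 replicate 1), which had the lowest total count. Its summed epithelium markers were at 2200 CPM, against 3485 to 4006 CPM in the other E16 teeth. Its summed mesenchyme markers were at 2718 CPM, against 6315 to 7873 CPM. Values for E16 are therefore given with it and, where it matters, without it. Fewer cells of a type and less RNA per cell cannot be told apart in such whole-tooth samples. Of the other tissues checked, summed levels of 6 cornified epithelium markers were 7.47 to 9.07 CPM at E13, 13.2 to 23.4 CPM at E14 and 522 to 1157 CPM at E16, and their part in the results was not tested.

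**Figure D1:**
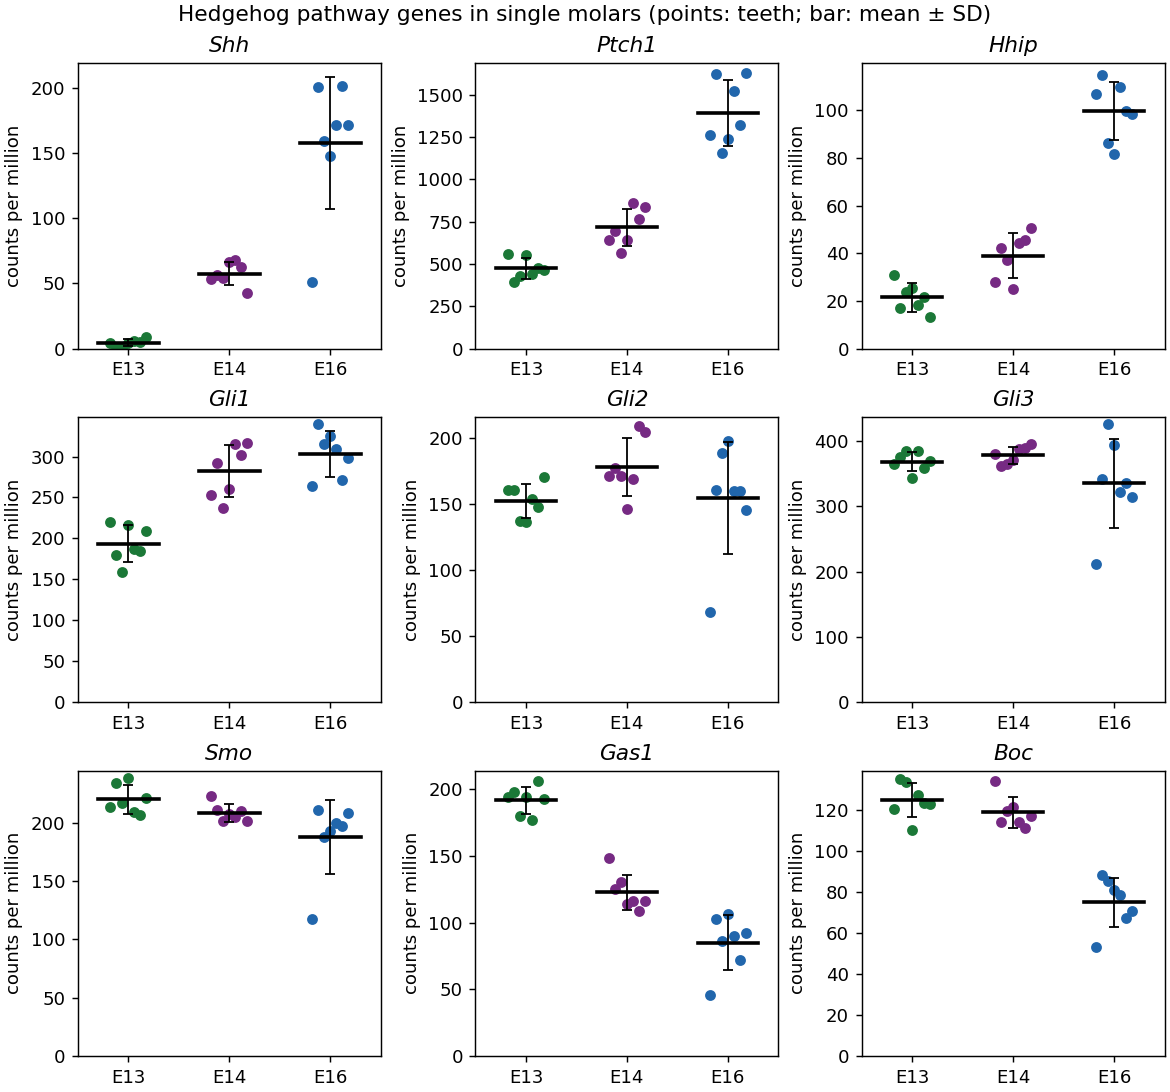
Levels of the 9 genes in each molar in CPM (vertical axis from 0) at E13, E14 and E16. Points are teeth, the long bar is the mean and the error bar its SD. Ptch1 reached 1155 to 1624 CPM at E16 with no overlap with E14, and the low E16 point in the panels of Shh, Gli2, Gli3, Smo, Gas1 and Boc is replicate 1.

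Promoter sequence was shown for Ptch1 and Hhip, which rose together, and for Gas1, which fell. The lines below hold the 250 bases before the RefSeq start of each gene (build GRCm38.p6, 5′ to 3′ on the minus strand, on which all 3 genes lie), with CG dinucleotides in capitals. They cover chr13:63565736-63565985 for Ptch1, chr8:80058009-80058258 for Hhip and chr13:60177536-60177785 for Gas1. The Ptch1 window lay inside the gene as Ensembl annotates it, since that annotation also holds a start farther upstream.
Ptch1: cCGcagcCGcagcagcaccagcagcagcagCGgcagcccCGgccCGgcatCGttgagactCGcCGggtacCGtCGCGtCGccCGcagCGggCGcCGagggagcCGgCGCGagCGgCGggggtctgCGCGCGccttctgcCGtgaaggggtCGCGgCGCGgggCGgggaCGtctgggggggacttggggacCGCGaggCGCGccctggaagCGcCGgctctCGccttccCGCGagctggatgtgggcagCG
Hhip: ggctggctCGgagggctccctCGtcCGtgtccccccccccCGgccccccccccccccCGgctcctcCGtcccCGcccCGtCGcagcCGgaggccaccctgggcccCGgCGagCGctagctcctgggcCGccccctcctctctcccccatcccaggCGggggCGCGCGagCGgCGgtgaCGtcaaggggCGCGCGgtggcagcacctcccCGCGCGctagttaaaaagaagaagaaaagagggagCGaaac
Gas1: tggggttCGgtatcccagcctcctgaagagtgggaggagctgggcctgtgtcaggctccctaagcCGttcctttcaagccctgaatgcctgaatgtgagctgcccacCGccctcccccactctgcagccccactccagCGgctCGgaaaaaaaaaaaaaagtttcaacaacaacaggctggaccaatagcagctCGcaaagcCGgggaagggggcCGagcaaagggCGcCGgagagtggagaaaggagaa

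The Ptch1 window held 41 CG dinucleotides and the Hhip window 28, and the Gas1 window held 10. The windows of Gli3, Gli2 and Smo, not printed here, held 34, 22 and 15. Over all 32851 mouse promoters in the table the median was 6, and 1.09% of promoters held at least as many as Ptch1, 7.61% at least as many as Hhip and 37.8% at least as many as Gas1. Promoters of 6 of the 9 genes were matched by symbol (Smo, Ptch1, Hhip, Gli2, Gli3 and Gas1). The 9-letter Gli consensus GACCACCCA, searched on both strands of 300 bases around the start, occurred in 0.253% of all promoters and in none of these 6. Its 7-letter core CCACCCA, which any match to the consensus also holds, occurred in 9.30% of all promoters and again in none of the 6. The absence says only that these letters were not in these windows.

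The ligand gene Shh (ENSMUSG00000002633, chromosome 5, 28456815 to 28467256, GRCm38, minus strand) was at 0.967, 4.01 and 8.98 CPM in the lowest, median and highest E13 tooth, from 21 to 169 reads. At E14 the lowest, median and highest teeth were at 42.8, 56.2 and 67.9 CPM. At E16 they were at 51.1, 171 and 201 CPM. Every E14 tooth was above every E13 tooth, and 6 of 7 E16 teeth were above every E14 tooth, the exception being replicate 1. The log2 fold change was 3.75 ± 0.33 from E13 to E14 (edgeR adjusted p = 1.34e-08) and 1.46 ± 0.29 from E14 to E16 (edgeR adjusted p = 0.000447), the latter 1.62 without replicate 1. Shh was also the most variable of the 9 genes at E13, with a coefficient of variation of 64.1%, against 15.2% at E14. The span of the gene overlaps those of the noncoding Gm26894 and 9530036O11Rik on the other strand. The strand setting of the counting was not given in the sources used here. Whether the overlap reaches exons, and whether it affected the count of Shh, was not tested.

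The other Hedgehog ligands were near the limit of detection. Ihh had 3 to 34 reads per tooth at E13, 11 to 84 at E14 and 4 to 20 at E16. Its level fell from E14 to E16 (log2 fold change -1.37 ± 0.49, edgeR adjusted p = 0.0378), at levels that never exceeded 3.31 CPM. Without replicate 1 the call was lost for Ihh (log2 fold change -1.26, edgeR adjusted p = 0.0584), as it was with teeth of one embryo summed (-1.49, edgeR adjusted p = 0.0597). Dhh had 0 to 24 reads per tooth and did not pass the filter on low counts. Shh was thus the Hedgehog ligand with the most reads per kilobase of exon at every stage, with 1.51, 20.2 and 55.4 CPM per kilobase at E13, E14 and E16, against 0.292, 0.360 and 0.139 for Ihh.

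Of the 9 genes, 4 were higher and 1 was lower at E14 than at E13, whereas 19.7% of all genes tested were called in either direction, 11.3% higher and 8.47% lower. Between E14 and E16, 3 were higher and 2 were lower, where 28.1% of genes were called, 15% higher and 13.1% lower. Between E13 and E16, 4 were higher and 3 were lower, where 41.3% were called, 21.6% higher and 19.6% lower. The median log2 fold change of the 9 genes was 0.23, -0.15 and 0.02 in the 3 comparisons, and that of all genes tested was -0.01, 0.00 and -0.01. The 3 comparisons share teeth, since each stage enters 2 of them. Counts of calls over the 9 genes stayed the same without replicate 1.

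**Figure D2:**
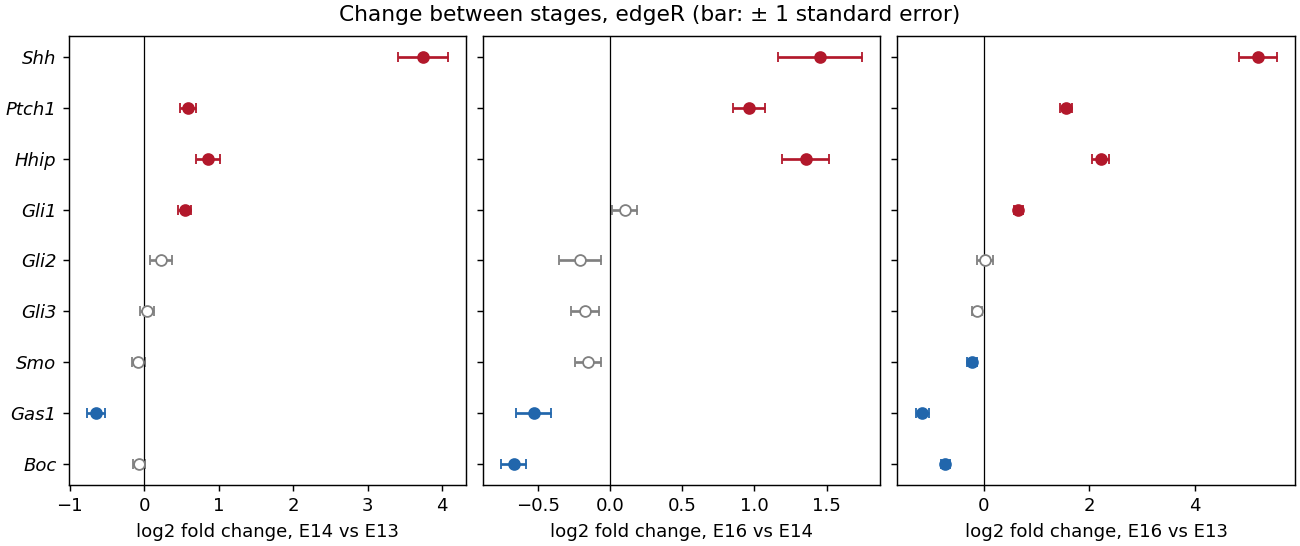
Log2 fold changes (horizontal axis) of the 9 genes in the 3 stage comparisons with standard errors from edgeR, each panel with its own scale. Filled points passed the test, red for higher and blue for lower at the later stage, and open grey points did not. Shh had 3.75, Ptch1 0.59 and Gas1 -0.64 in the first panel.

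Ptch1 (ENSMUSG00000021466, chromosome 13, 63508328 to 63573598, minus strand) encodes the main receptor, which keeps Smoothened inactive until ligand binds. At E13 the lowest, median and highest teeth were at 394, 463 and 557 CPM. At E14 they were at 561, 693 and 862 CPM, and at E16 at 1155, 1321 and 1624 CPM. No tooth of one stage overlapped with another stage. The log2 fold change was 0.59 ± 0.11 (edgeR adjusted p = 0.000309) in the first step and 0.96 ± 0.11 (edgeR adjusted p = 2.33e-07) in the second. The transcript A930032L01Rik overlaps it on the same strand.

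Hhip (ENSMUSG00000064325, chromosome 8, 79965851 to 80058006, minus strand) encodes a membrane protein that binds Hedgehog ligands and holds them from their receptor. It was at 13.1, 21.6 and 31.1 CPM in the lowest, median and highest E13 tooth and at 24.9, 42.1 and 50.6 CPM at E14. At E16 the corresponding values were 81.6, 99.7 and 115 CPM. The E13 and E14 teeth overlapped, 5 of 7 E14 teeth being above all E13 teeth, whereas all E16 teeth were above all others. Its log2 fold change was 0.86 ± 0.16 (edgeR adjusted p = 0.000426) from E13 to E14 and 1.35 ± 0.16 (edgeR adjusted p = 4.70e-07) from E14 to E16. Hhip overlaps the short noncoding Gm27820 on the other strand.

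Smo (ENSMUSG00000001761, chromosome 6, 29735503 to 29761365, plus strand) encodes Smoothened, the membrane protein that passes the signal into the cell. Its lowest, median and highest levels were 206, 217 and 239 CPM at E13 and 201, 208 and 223 CPM at E14. At E16 they were 118, 197 and 211 CPM, the lowest being replicate 1. The stages overlapped throughout. Smo did not pass the test in either step, with log2 fold changes of -0.08 ± 0.09 and -0.15 ± 0.09. From E13 to E16 it was lower by a small margin (log2 fold change -0.23 ± 0.09, edgeR adjusted p = 0.0440). That call was lost in 16 of 21 alternatives, and without replicate 1 the log2 fold change was -0.13 (edgeR adjusted p = 0.0194). The processed pseudogene Gm13717 overlaps Smo.

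Gas1 and Boc, with Cdon, encode the co-receptors that help Patched to bind ligand. Gas1 (ENSMUSG00000052957, chromosome 13, 60174405 to 60177365, minus strand) was at 177, 194 and 206 CPM in the lowest, median and highest E13 tooth, and at 108, 116 and 148 CPM at E14. At E16 it was at 45.7, 90.1 and 107 CPM. The levels of the 3 stages did not overlap. The log2 fold change was -0.64 ± 0.12 (edgeR adjusted p = 0.000472) in the first step and -0.53 ± 0.12 (edgeR adjusted p = 0.00194) in the second, the latter -0.40 without replicate 1. The noncoding Gm48488 overlaps Gas1 on the other strand.

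Boc (ENSMUSG00000022687, chromosome 16, 44485049 to 44558897, minus strand) was at 110, 124 and 135 CPM in the lowest, median and highest E13 tooth and at 111, 117 and 134 CPM at E14. At E16 it was at 53.4, 78.6 and 88.1 CPM, below every earlier tooth. From E13 to E14 the log2 fold change was -0.07 ± 0.09 (edgeR adjusted p = 0.617), and from E14 to E16 it was -0.66 ± 0.09 (edgeR adjusted p = 1.82e-06). The microRNA gene Mir3081 lies within Boc.

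Cdon, the third co-receptor gene, had a median of 155 CPM at E13, 141 CPM at E14 and 82.0 CPM at E16. Its log2 fold change was -0.17 ± 0.09 (edgeR adjusted p = 0.194) in the first step and -0.82 ± 0.09 (edgeR adjusted p = 1.26e-07) in the second. Together Gas1, Boc and Cdon summed to 114 ± 4 CPM per kilobase in E13, 87.0 ± 8.0 in E14 and 56.3 ± 10.4 in E16 teeth (SD, n = 7), and without replicate 1 the E16 mean was 59.6 ± 6.4 (SD, n = 6). Some mesenchyme markers moved with these genes. Of 8 such markers 4 were lower and 1 was higher at E16 than at E13 (4 lower and 3 higher without replicate 1), Msx1 for example falling from a median of 447 to 176 CPM, while their summed level was 6356 to 7282 CPM at E13 and 6315 to 7873 CPM in the E16 teeth other than replicate 1. Their part in the change of the co-receptors was not tested.

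Gli1 (ENSMUSG00000025407, chromosome 10, 127329882 to 127341974, minus strand) encodes an activator that is itself induced by the pathway. Its lowest, median and highest levels were 159, 187 and 220 CPM at E13 and 237, 292 and 317 CPM at E14. At E16 they were 263, 310 and 339 CPM. All E14 teeth were above all E13 teeth, whereas E14 and E16 overlapped. The log2 fold change was 0.55 ± 0.09 (edgeR adjusted p = 5.10e-05) in the first step and 0.10 ± 0.09 (edgeR adjusted p = 0.400) in the second, where the 95% interval ran from -0.06 to 0.27. The span of Gli1 overlaps those of the protein-coding Arhgap9 and the antisense Gm47200 on the other strand, and whether this affected its count was not tested.

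Gli2 (ENSMUSG00000048402, chromosome 1, 118834132 to 119053619, minus strand), known as the main activator, was at 137, 154 and 170 CPM in the lowest, median and highest E13 tooth. It was at 146, 171 and 209 CPM at E14 and at 68.4, 160 and 198 CPM at E16, the stages overlapping. Its log2 fold changes were 0.23 ± 0.14 and -0.21 ± 0.14 in the 2 steps (edgeR adjusted p = 0.290 and 0.312). When only E13 and E14 teeth were fitted, the first step had a log2 fold change of 0.23 with edgeR adjusted p = 0.0199. The microRNA gene Mir6346 lies within Gli2 on the other strand.

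Gli3 (ENSMUSG00000021318, chromosome 13, 15463235 to 15730026, plus strand), known mainly as the repressor, was at 343, 370 and 385 CPM in the lowest, median and highest E13 tooth. It was at 361, 381 and 396 CPM at E14 and at 212, 335 and 427 CPM at E16, again with overlap. Its log2 fold changes of 0.04 ± 0.10 and -0.17 ± 0.10 did not pass the test (edgeR adjusted p = 0.827 and 0.190). The coefficient of variation of Gli3 between teeth was 3.47% at E14. Its locus also holds the noncoding Gm6556 on the other strand and the pseudogene Gm48343.

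Scaled by exon length, the order of the 9 genes changed between the bud and the bell stage. At E13 Gas1 was highest with 64.7 ± 3.4 CPM per kilobase, followed by Smo with 39.2 ± 2.2, Gli1 with 38.7 ± 4.5, Gli3 with 38.5 ± 1.5 and Ptch1 with 33.4 ± 4.3 (SD, n = 7). Among Smo, Gli1, Gli3 and Ptch1, neighbours in this order did not differ beyond their spread. Boc and Gli2 came next with 28.0 ± 1.9 and 22.2 ± 1.8 CPM per kilobase, and Hhip and Shh last with 2.37 ± 0.66 and 1.51 ± 0.97. At E16 Ptch1 was highest with 98.1 ± 13.7 CPM per kilobase, followed by Gli1 with 60.7 ± 5.6 and Shh with 55.4 ± 17.9, the last 2 overlapping. Gli3, Smo and Gas1 followed with 35.0 ± 7.1, 33.4 ± 5.7 and 28.7 ± 7.0 CPM per kilobase, also overlapping. Gli2 was at 22.5 ± 6.1, Boc at 16.8 ± 2.7 and Hhip at 11.0 ± 1.3.

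Ratios within a tooth do not depend on the scaling of its library, and are given as a description. The log2 ratio of Ptch1 to Smo per kilobase averaged -0.24 ± 0.20 in E13 teeth, 0.43 ± 0.24 in E14 teeth and 1.57 ± 0.27 in E16 teeth (SD, n = 7), with no overlap between stages. The log2 ratio of Ptch1 to Gli1, both targets of the pathway, was -0.22 ± 0.12 at E13 and -0.17 ± 0.08 at E14, but 0.69 ± 0.21 at E16. All E16 teeth, from 0.37 to 0.94, were above the highest earlier value of -0.05. The log2 ratio of Hhip to Ptch1 was -3.86 ± 0.33, -3.58 ± 0.28 and -3.16 ± 0.15 at the 3 stages. E13 and E14 overlapped widely, and E14 and E16 overlapped in part, whereas E13 and E16 did not overlap.

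Among the Gli genes, the share of Gli1 in their summed level per kilobase averaged 38.9 ± 3.1% in E13, 46.3 ± 2.2% in E14 and 51.9 ± 5.2% in E16 teeth (SD, n = 7). The share of Gli3 was 38.8 ± 2.8%, 32.5 ± 1.9% and 29.4 ± 2.3%, and that of Gli2 22.3 ± 1.2%, 21.3 ± 1.6% and 18.7 ± 3.2%. Without replicate 1 the E16 shares were 50.2 ± 2.8% for Gli1, 29.9 ± 1.9% for Gli3 and 19.9 ± 1.2% for Gli2 (SD, n = 6). The log2 ratio of Gli1 to Gli3 was from -0.33 to 0.27 at E13 and from 0.32 to 0.64 at E14, so that these stages did not overlap, whereas E14 and E16 did.

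**Figure D3:**
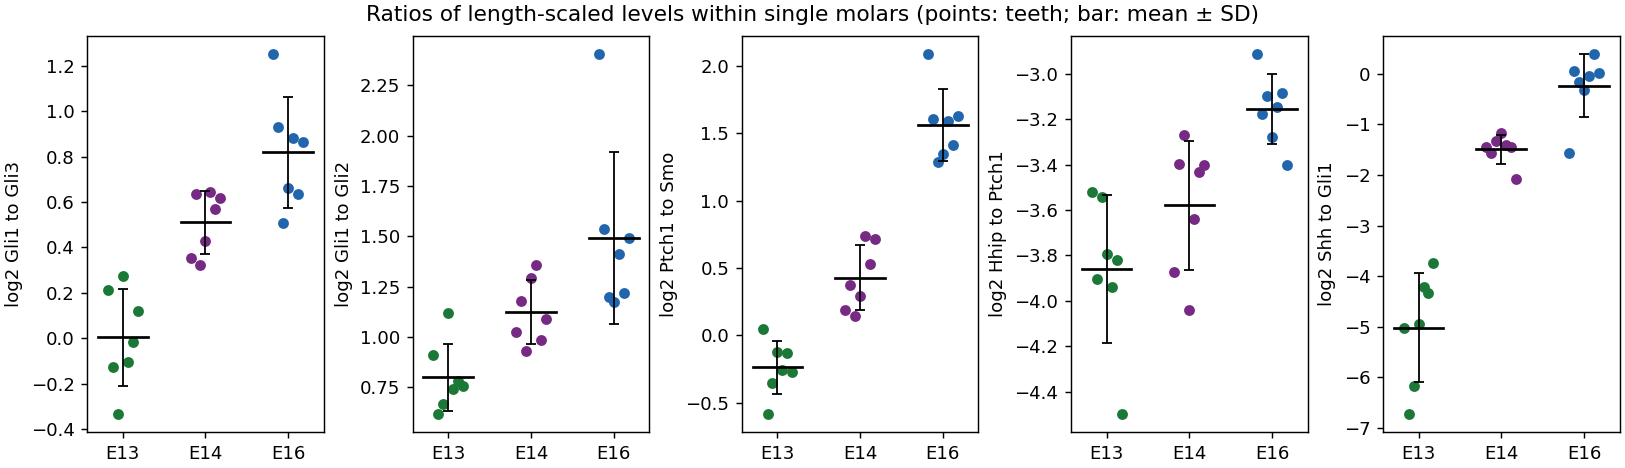
Log2 ratios of levels per kilobase of exon (vertical axes, each with its own scale) within single molars at E13, E14 and E16. Points are teeth, the long bar is the mean and the error bar its SD. The ratio of Ptch1 to Smo moved from a mean of -0.24 at E13 to 1.57 at E16, and the E16 tooth lying apart in most panels is replicate 1.

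Epithelium markers moved with Shh, all 9 rising in each comparison, where 19.7%, 28.1% and 41.3% of all genes were called. Whether these markers came from dental or other oral epithelium was not tested. Their summed level was 825 to 1254 CPM at E13, 1716 to 2169 CPM at E14 and 2200 to 4006 CPM at E16. Shh was therefore also measured relative to the mean log2 CPM of the 9 markers in the same tooth. Shh lay -4.75 ± 1.24 from that mean at E13 (SD, n = 7), -1.52 ± 0.32 from it in E14 teeth and -0.99 ± 0.38 in E16 teeth. It rose by 3.23 from E13 to E14 in an exact two-sided permutation test over teeth (p = 0.000583, which is the smallest p that 7 against 7 teeth can give, adjusted p = 0.000874 over 3 comparisons). From E14 to E16 it rose by 0.53 (exact permutation p = 0.0198, adjusted p = 0.0198), and in 6 of 7 E16 teeth it was higher than the E14 median of -1.56. With teeth of one embryo averaged the second step was 0.53 with an exact permutation p = 0.0519, and without replicate 1 it was 0.66 with p = 0.00117. Its size depends on the markers averaged. Single markers rose by 0.24 to 1.85 on the log2 scale in that step, against 1.46 for Shh. Against a shorter list of Epcam, Cdh1, Cdh3, Krt5 and Krt14 the step was 0.68 (exact permutation p = 0.00291).

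**Figure D4:**
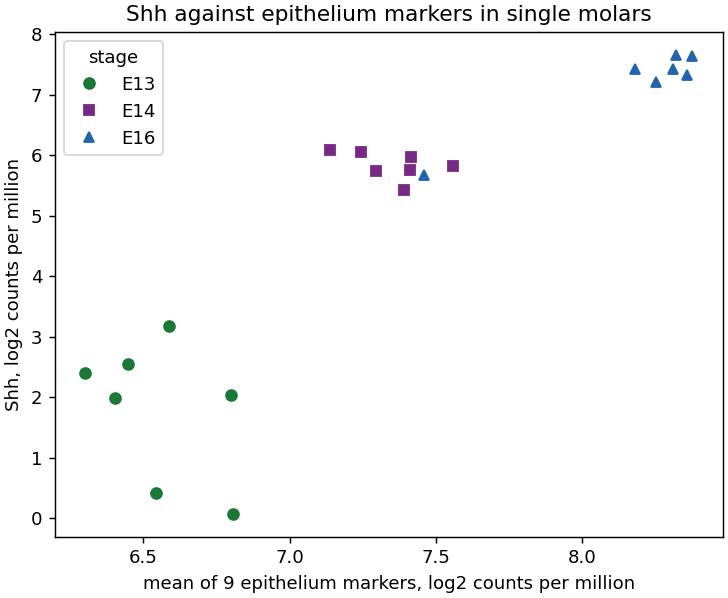
Shh (vertical axis, log2 CPM) against the mean log2 CPM of 9 epithelium markers (horizontal axis), one point for each molar, with circles for E13, squares for E14 and triangles for E16. E13 teeth lay between 0.07 and 3.18 on the Shh axis and E14 teeth between 5.42 and 6.09, and the one E16 triangle among the E14 squares is replicate 1.

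Genes of the enamel knot, the signalling centre in which Shh is known to be active, moved with it in the first step. Of 11 such genes, 8 were higher at E14 than at E13, with a median log2 fold change of 1.62, and the other 3 did not pass the edgeR test. In that step 19.7% of all genes tested were called, 11.3% higher. Fgf4, a growth factor of the knot, had a median of 0.246 CPM at E13 and 7.70 CPM at E14 (log2 fold change 4.13 ± 0.44, edgeR adjusted p = 1.94e-07). Fgf20, another growth factor of the knot, rose by 2.56 ± 0.40 on the log2 scale (edgeR adjusted p = 4.78e-05). The Wnt inhibitor gene Dkk4 was between 0 and 0.0815 CPM in E13 teeth and between 0.832 and 1.99 CPM in E14 teeth.

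Between E14 and E16, 3 of these genes were higher and 2 lower, with a median of 0.09, where 28.1% of all genes were called. Unlike Shh, which rose, Fgf4 and Fgf20 fell by 1.68 and 1.53 on the log2 scale (edgeR adjusted p = 0.000991 and 0.00280). Edar, the receptor of ectodysplasin, rose by 1.55 ± 0.15 on the log2 scale (edgeR adjusted p = 2.58e-08). From E13 to E16, 9 of these genes were higher and 1 lower, with a median of 1.50, where 41.3% of all genes were called. Wnt10a was among the higher genes, with a log2 fold change of 2.66 ± 0.19 (edgeR adjusted p = 4.80e-11).

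The rest of the pathway was counted in the same way. Of 34 other Hedgehog genes in the list of pathway genes the study used, 33 were tested. There 2 were higher and 4 lower from E13 to E14, 4 higher and 5 lower from E14 to E16, and 4 higher and 8 lower from E13 to E16. These counts lay near or below the shares called over all genes, which were 19.7%, 28.1% and 41.3%. Their median log2 fold changes were -0.05, 0.01 and -0.09. Kctd11, known to restrain the pathway through ubiquitin ligation, rose by 0.89 ± 0.19 from E13 to E14 (log2 scale, edgeR adjusted p = 0.00144). Arrb1, a beta-arrestin that binds Smoothened, rose by 0.93 ± 0.10 from E14 to E16 (log2 scale, edgeR adjusted p = 1.13e-07).

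Of 6 genes for the release and spread of ligand, 1 was higher and 1 lower in each step, and 2 were higher from E13 to E16. Their median log2 fold changes were 0.23, 0.15 and 0.16. Scube3, of a family of secreted proteins that help to free the ligand from the cell, rose by 1.26 ± 0.16 from E13 to E14 (log2 scale, edgeR adjusted p = 2.53e-06), and Scube1 fell by 0.59 (edgeR adjusted p = 0.00927). From E14 to E16 Scube1 rose by 0.44 ± 0.16 (log2 scale, edgeR adjusted p = 0.0400). Scube2 was higher at E16 than at E13, by 0.94 ± 0.26 (log2 scale, edgeR adjusted p = 0.00493). Disp2 fell by 1.36 from E14 to E16 (edgeR adjusted p = 0.0265) from levels of about 1 CPM or less. Without replicate 1, 4 of the 6 genes were higher and 1 lower from E14 to E16. With all teeth fitted, 15% of all genes were higher and 13.1% lower in that step.

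Of 15 genes that regulate Gli proteins, 2 were lower and 13 did not pass from E13 to E14, 1 was higher and 3 lower from E14 to E16, and 1 was higher and 6 lower from E13 to E16. Counted over both directions, these lay near the shares called over all genes, which were 19.7%, 28.1% and 41.3%. From E13 to E16 most of the called regulators were lower, whereas 21.6% of all genes were higher and 19.6% lower. The median log2 fold changes of the 15 genes were -0.03, -0.13 and -0.12. Stk36, a kinase of the family that in the fly acts on the Gli homologue, fell by 0.37 on the log2 scale from E13 to E14 (edgeR adjusted p = 0.00273). Evc, which binds Smoothened at the cilium, was lower from E13 to E14 and from E13 to E16 (log2 fold changes -0.25 ± 0.07 and -0.45 ± 0.07, edgeR adjusted p = 0.00793 and 5.45e-06). Its partner Evc2 was lower from E14 to E16 by -0.26 ± 0.07 (log2 fold change, edgeR adjusted p = 0.00784). Prkaca and Prkacb, the catalytic subunits of protein kinase A, were lower from E13 to E16 and from E14 to E16, respectively (log2 fold changes -0.51 ± 0.18 and -0.27 ± 0.08, edgeR adjusted p = 0.0279 and 0.00896).

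Of 15 genes of the primary cilium, 3 were lower and 12 did not pass from E13 to E14, 2 were higher and 1 lower from E14 to E16, and 4 were lower and 11 did not pass from E13 to E16. With 19.7%, 28.1% and 41.3% of all genes called, the cilium genes were called about as often as genes in general or less often. Their median log2 fold changes were -0.18, 0.06 and -0.09, and single changes were small. Mks1, Fuz and Ift172 each fell by 0.31 on the log2 scale from E13 to E14 (edgeR adjusted p = 0.0327, 0.00820 and 0.00220). Rpgrip1 rose by 0.57 ± 0.18 from E14 to E16 (log2 scale, edgeR adjusted p = 0.0215), while Stil fell by 0.36 (edgeR adjusted p = 0.000875). Fuz was the other gene higher from E14 to E16, and from E13 to E16 it did not pass. Dync2h1, the motor of transport back along the cilium, fell by 0.32 from E13 to E16 (log2 scale, edgeR adjusted p = 0.00104).

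Of 8 further known targets, 2 were higher and 6 did not pass from E13 to E14, 2 were higher and 4 lower from E14 to E16, and 2 were higher and 3 lower from E13 to E16. The medians were 0.14, -0.38 and -0.18, and the shares called over all genes were 19.7%, 28.1% and 41.3%. Ccnd2, a cyclin of the G1 phase, rose by 0.71 ± 0.13 in the first step (log2 scale, edgeR adjusted p = 0.000211) and fell by 0.84 in the second (edgeR adjusted p = 1.68e-05). Foxf2, a forkhead factor of the mesenchyme, rose by 0.79 ± 0.19 in the second step (log2 scale, edgeR adjusted p = 0.00319), with 17.4 CPM in replicate 1 and 59.5 to 78.9 CPM in the other E16 teeth. Foxf1 was lower at E16 than at E13 (log2 fold change -0.43 ± 0.16, edgeR adjusted p = 0.0384), by -0.27 without replicate 1. Leaving out that tooth, 3 of the 8 targets were higher and 2 lower from E13 to E16.

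In the second table, whose counts were estimated by salmon for 14185 genes, 8 of the 9 genes were listed, Gli2 being the exception. It holds E13, E15 and E16 teeth but no E14, and 13447 genes were tested. The E15 teeth carry their own labels and processing notes, so that their stage and their handling cannot be told apart. At E15 Shh was at 48.5, 61.0 and 84.5 CPM in the lowest, median and highest of 6 teeth, against 1.09 to 9.85 CPM at E13 and 67.2 to 234 CPM at E16. The E13 and E15 teeth did not overlap, and 6 of 7 E16 teeth were above all E15 teeth.

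From E13 to E15, 3 of the 8 genes were higher and 1 was lower, where 26.8% of genes were called, 18.3% higher and 8.49% lower. Shh, Hhip and Ptch1 had log2 fold changes of 3.70 ± 0.35, 1.38 ± 0.18 and 0.67 ± 0.13 (edgeR adjusted p = 2.64e-08, 3.58e-06 and 0.000388), and Gas1 of -0.84 ± 0.13 (edgeR adjusted p = 3.07e-05). From E15 to E16, 4 were higher and 1 was lower, where 6.33% were called, 3.64% higher and 2.69% lower. These were Shh with 1.55 ± 0.32, Ptch1 with 0.90 ± 0.13, Hhip with 0.87 ± 0.18 and Gli1 with 0.58 ± 0.09, and Boc with -0.57 ± 0.10 (log2 fold changes, edgeR adjusted p = 0.00296, 8.73e-05, 0.00309, 0.000214 and 0.000821).

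Gli1 at E15 lay near its E13 level. Its lowest, median and highest E15 teeth were at 193, 240 and 274 CPM, against 182, 209 and 247 CPM at E13, and the log2 fold change was 0.10 ± 0.09 (edgeR adjusted p = 0.433, 95% interval -0.08 to 0.28). The E14 teeth, which were 0.55 above E13 on the log2 scale in the first table, are not in the second, so that E14 and E15 were not compared directly. From E13 to E16, where 36.4% of genes were called in this table, 21.7% higher and 14.7% lower, the E13 and E16 teeth gave log2 fold changes of 5.25 for Shh, 2.25 for Hhip, 1.57 for Ptch1 and 0.68 for Gli1 in the second table, against 5.20, 2.21, 1.55 and 0.65 in the first, and Gas1 and Boc were again lower.

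**Figure D5:**
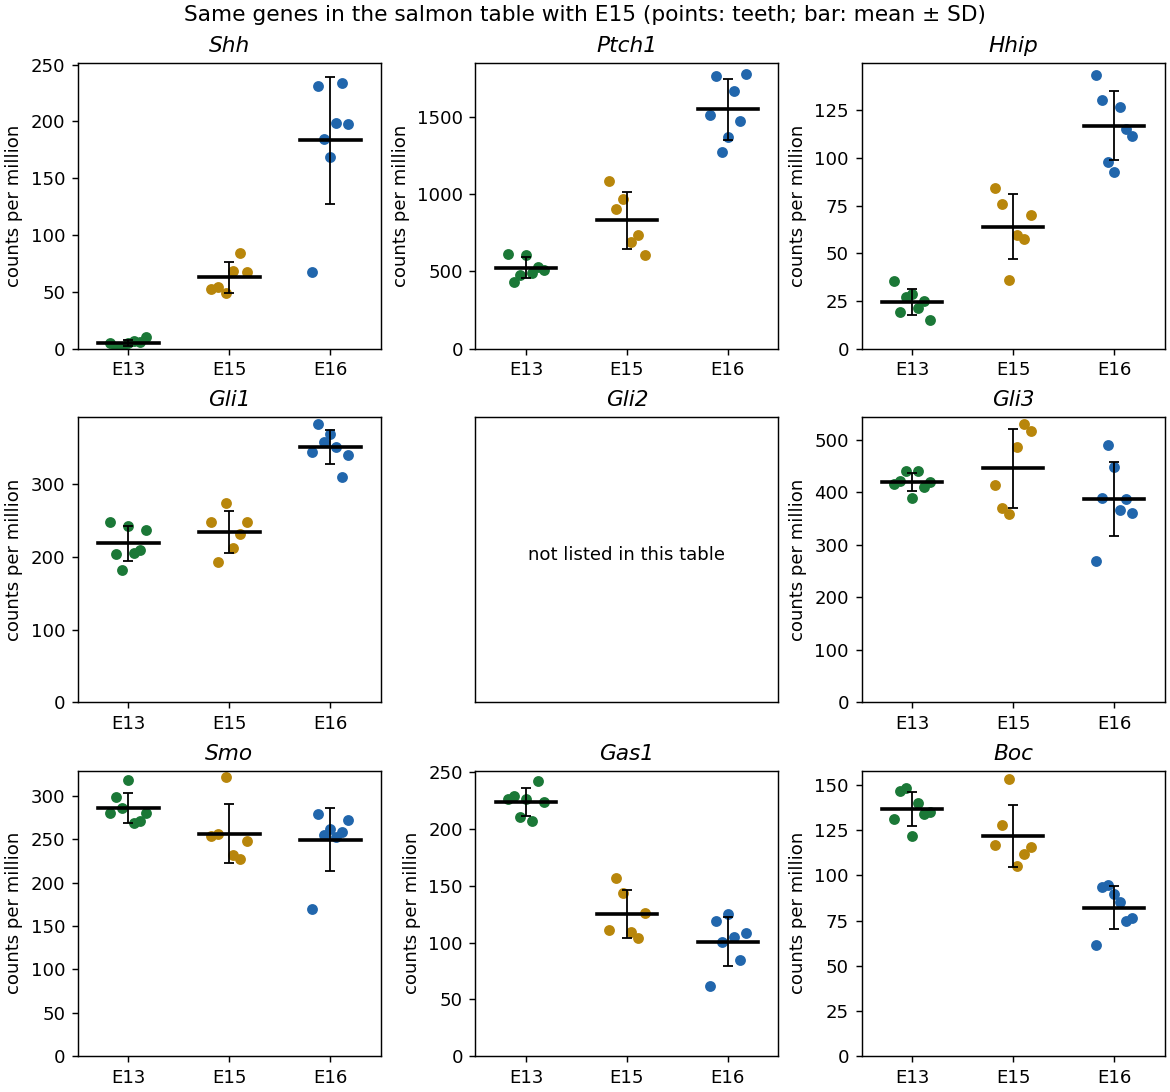
Levels in CPM (vertical axis from 0) of the same genes in the salmon table at E13, E15 and E16, points being teeth (7, 6 and 7), the long bar the mean and the error bar its SD. Ptch1 at E15 had a mean of 830 CPM, between 522 at E13 and 1548 at E16, and Gli2 is not listed.

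Across the 21 teeth, which share their stages and libraries, the genes with the level pattern most like each of 3 members were looked up by Pearson r of log2 CPM, given as a description. For Shh these were Tmcc3, Casz1, Has3, Tspear and Cyp26c1, with r of 0.98, 0.97, 0.97, 0.96 and 0.96. Has3, a hyaluronan synthase, went for example from 10.3 ± 2.0 CPM at E13 through 48.8 ± 5.8 to 125 ± 31 at E16 (SD, n = 7). For Ptch1 they were Tmprss13, Plppr1, Slco4a1, Dmkn and Nt5e, with r from 0.96 to 0.97, and the member most like Ptch1 was Hhip with r of 0.97. For Gli1, Tbx1, Rspo4, Stac2 and Tmcc3 were among them, each with r of 0.92. Gli2 and Gli3 followed each other with r of 0.87, as did Gas1 and Boc with r of 0.87.

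Left and right molars of one embryo were both measured in 1 E14 and 2 E16 embryos. The log2 ratio of left to right was between -0.23 and -0.11 for Shh in the 3 pairs, from -0.17 to 0.30 for Ptch1 and from -0.06 to 0.14 for Gli1. For these 3 genes the differences were smaller than the changes between E13 and E14 given above. Gas1 had a log2 ratio of -0.10 in the E14 pair and of 0.31 and 0.37 in the E16 pairs. Its step from E14 to E16 was -0.53, or -0.40 without replicate 1. Gli2 differed by 0.31 between the E14 molars of one embryo, more than its step of 0.23 between these stages, and Gli3 by up to 0.11 in size, more than its step of 0.04.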

How the data were processed

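Single first molars were sequenced as 84-base reads. The authors removed poor reads, aligned the rest to GRCm38 with STAR and deposited raw counts per gene from HTSeq for 21 teeth. The second deposited table holds estimated counts from salmon 0.99.0, as whole numbers, for 20 teeth. Its index and choice of genes were not given in the sources used here. One HTSeq column names the E13 stage but no embryo number and entered as an E13 tooth, and 6 of 7 teeth labelled E15 had a column.

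The study's methods give no test between stages. Here the 21 teeth were fitted with stage as factor in edgeR 4.0.16 (TMM scaling, its filter on low counts, quasi-likelihood test), and the salmon table separately. Standard errors came from the F statistic, and levels per kilobase used merged exons of GENCODE vM21. Log2 CPM beside markers used a prior count of 2. The fit was tested on simulated data. Teeth of one embryo entered as separate samples, so that p-values in part measure the spread between teeth.

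The 9 genes and all lists were chosen with earlier results of these data known. Named were the 9 genes, Ihh, Dhh and Cdon, in each other list the 3 called genes with the largest change per comparison, and the 5 protein-coding genes most like Shh, Ptch1 and Gli1. Msx1 was named after its values were seen, and 1 gene that the rule names is not reported here. Alternatives were DESeq2 1.42.0, its size factors, no filter, teeth summed by embryo, side as a factor, 2 stages only, and leaving out each tooth. Promoters are from RefSeq.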

Additional observations from a re-analysis of the deposited data

Results flagged for a closer look

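A gap test on the highest and lowest tooth of each stage was run on 53 groups of levels and ratios, in which chance alone flags about 1 in 20 groups. It marked 9 values, 7 of them in E16 replicate 1. In that tooth Shh was at 51.1 CPM (148 to 201 in the others), Gli2 at 68.4 CPM (146 to 198) and Smo at 118 CPM (188 to 211). Its log2 ratio was 2.40 for Gli1 to Gli2 (1.18 to 1.54 in the others), 2.09 for Ptch1 to Smo (1.28 to 1.63) and -1.56 for Shh to Gli1 (-0.33 to 0.38), and Shh minus epithelium markers was -1.78 on the log2 scale (-1.04 to -0.67). The summed marker levels given with the samples above moved with these values, and their part was not tested. Ptch1 at 1261 CPM and Hhip at 107 CPM in the same tooth lay within the range of the other E16 teeth.

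Smo was at 322 CPM in E15 replicate 3, against 227 to 256 CPM in the other 5 E15 teeth. The log2 ratio of Hhip to Ptch1 was -4.50 in the E13 tooth with no embryo number, against -3.94 to -3.52 in the other 6.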

How the results depend on the processing

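The counts of higher and lower genes among the 9 stayed within 1.5 times in every alternative and every comparison, the salmon table included. Of 804 recomputed fold changes of single genes, 787 kept their side of the threshold, 16 lost the call and 1 gained it. No called change was reversed. Some changes near 0 that were not called did change sign, for example Gli2 from E13 to E16, which ran from -0.04 to 0.16. All 16 were Smo from E13 to E16 (adjusted p between 0.0531 and 0.128 in these 16), and the gain was Gli2 from E13 to E14 when only these stages were fitted. Of the other Hedgehog genes in the study's list, 13 instead of 6 were called from E13 to E14 when only these stages were fitted, and 5 instead of 9 from E14 to E16 without the filter on low counts. The cause was not tested. Shh relative to epithelium markers rose by 0.53 from E14 to E16 with adjusted p = 0.0519 when teeth of one embryo were averaged, which leaves 5 against 6 values. Leaving out single teeth moved this step from 0.46 to 0.66, the first from 2.90 to 3.45 and the step from E13 to E16 from 3.43 to 3.99. No paired analysis was possible because embryo numbers name different embryos at each stage. List counts in alternatives were added after seeing the data: with teeth summed by embryo, 6 instead of 9 epithelium markers were higher from E14 to E16, and edgeR called 0 of 6 ligand release genes there (2 higher and 1 lower at unadjusted p under 0.05), against 1 higher and 1 lower with single teeth and 2 higher and 1 lower by DESeq2. Summing by embryo also left 2 instead of 5 other Hedgehog genes of the study's list lower from E14 to E16, and 1 instead of 3 further targets lower from E13 to E16. Without E16 replicate 1, 2 instead of 1 Gli regulators were higher from E13 to E16 and 2 instead of 1 cilium genes lower from E14 to E16. With teeth summed by embryo the call was also lost for Foxf1 from E13 to E16 (edgeR adjusted p = 0.0526), Scube1 (0.0864) and Disp2 (0.0728) from E14 to E16 and Mks1 from E13 to E14 (0.0519). Depth limits Ihh and Dhh and, at E13, Shh.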

Other observations

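Within a stage, levels of Shh, Ptch1, Gli1 and Hhip were compared between embryos at E13 and E14, with teeth of one embryo averaged, in 12 relations. None passed Benjamini-Hochberg adjustment. The strongest, singled out after its value was seen, was Ptch1 with Gli1 at E14 (Pearson r = 0.97, exact permutation p = 0.00556, adjusted p = 0.0667, Spearman rho = 0.94, exact permutation p = 0.0167, adjusted p = 0.143, n = 6 embryos). Without the 2 embryos farthest from the median Ptch1 level r was 0.93. The same pair at E13 had r = 0.79 (exact permutation p = 0.0365, adjusted p = 0.219, rho = 0.86, exact permutation p = 0.0238, adjusted p = 0.143, n = 7), and r was 0.46 without the 2 farthest embryos. E16 has 5 embryos, too few for such a comparison.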
